A study of Mus musculus with 18 samples.

Results

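The comparison described here set mouse pancreatic cancer lines from lung metastases against lines from liver metastases, all after knockdown of Gstt1. Its members are the 10 libraries labelled Gstt1 shRNA, of 18 in the series: 3 from lung lines and 7 from liver lines. They come from all 6 cell lines of the series. Line 42-3 (shRNA 1 and shRNA 2) and line 6-2 (shRNA 1) are lung lines. Lines 42-2, G45-2 and 6-3 (shRNA 1 and shRNA 2 each) and line 13-2 (shRNA 1) are liver lines. The other 8 libraries are NT controls, cells of the same 6 lines carrying a non-targeting hairpin, 3 from lung lines and 5 from liver lines.

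All groups carry a p53 allele written p53F/+ or Tp53F/+ and a p48 allele written p48-Cre or p48+. The p48 gene (Ptf1a) drives Cre in pancreatic cells. A Sirt6 allele written SIRT6F/F is named for every line but 13-2. The genotype of the 42-3 shRNA 1 library is written with p48-Cre and p53F/+, and that of the 42-3 shRNA 2 library with p48+ and Tp53F/+. The lines grew out of metastases that arose spontaneously in the mice. Lentivirus brought in the hairpin, puromycin was given for 48 hours, and RNA was taken after one split of the cultures. Each line stands for the metastasis it was grown from, and libraries of 1 line are not independent replicates of a site. Whether a library of a line is a separate culture is not stated, so p-values measure the spread between lines.

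Gstt1 is a theta-class glutathione transferase, an enzyme that joins glutathione to electrophilic compounds so that they can be cleared. Pancreatic ductal adenocarcinoma spreads mainly to liver and lung, and cells that colonise these organs keep part of the program of their primary tumour. Lung and liver offer metastatic cells different oxygen, nutrients and stroma. The lines here were compared in culture, away from both organs.

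Read totals recovered from the deposited CPM values (reads of a gene scaled to a common library total) were 8411436 to 25552912 per library. In these libraries 3 reads correspond to 0.117 to 0.357 CPM. Ductal epithelium markers, the keratins Krt8, Krt18 and Krt19 with Epcam, Cdh1 and Sox9, summed to 1488 to 4769 CPM in lung knockdown libraries and 368 to 7662 CPM in liver knockdown libraries. All 6 were among the genes tested. Of the markers of other cell types only part was listed in the table (2 of 5 for macrophages, 2 of 4 for lymphocytes, 4 of 4 for endothelium, 2 of 5 each for hepatocytes and lung epithelium and 1 of 5 for acinar cells). Macrophage, endothelial and acinar markers summed to at most 12.1, 11.4 and 20.3 CPM in lung libraries and 12.3, 2.99 and 12.4 CPM in liver libraries. Lymphocyte markers summed to at most 0.461 CPM in lung and 1.75 CPM in liver libraries, and lung epithelium markers to at most 0.717 and 5.88 CPM. Hepatocyte markers reached at most 3.07 CPM in lung libraries (6-2 shRNA 1). In liver libraries they reached 40.3 CPM in 6-3 shRNA 1 and at most 1.01 CPM in the others. The fibroblast markers Col3a1, Pdgfrb, Dcn, Lum and Pdgfra summed to 56.6 to 3845 CPM in lung libraries and 0.999 to 6438 CPM in liver libraries, with the highest values in 42-3 shRNA 1 and 42-2 shRNA 2, and their part in the results was not tested.

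The knockdown libraries did not group by site. Over the 12423 genes tested, Pearson's r of log2(CPM + 1) was 0.76 to 0.89 (median 0.82) for the 3 pairs of lung libraries, against 0.74 to 0.96 (median 0.85) for the 21 pairs of a lung with a liver library. Liver libraries of different lines gave 0.82 to 0.89 (median 0.86) over 18 pairs. These are correlations across genes, and genes are not independent replicates. The nearest library of 42-3 shRNA 2 (lung) was 13-2 shRNA 1 (liver), at r = 0.96, above its r of 0.89 with the other 42-3 library. The nearest library of 6-2 shRNA 1 (lung) was 42-2 shRNA 1 (liver), at r = 0.91. In the NT controls, by contrast, the 3 pairs of lung libraries lay at 0.93 to 0.95, with 0.93 for the pair within line 42-3. The 15 lung and liver pairs lay at 0.81 to 0.90 (median 0.85). Liver controls of different lines overlapped with these, at 0.82 to 0.90 (median 0.88) over 9 pairs, so that only the lung controls lay close together.

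**Figure D1:**
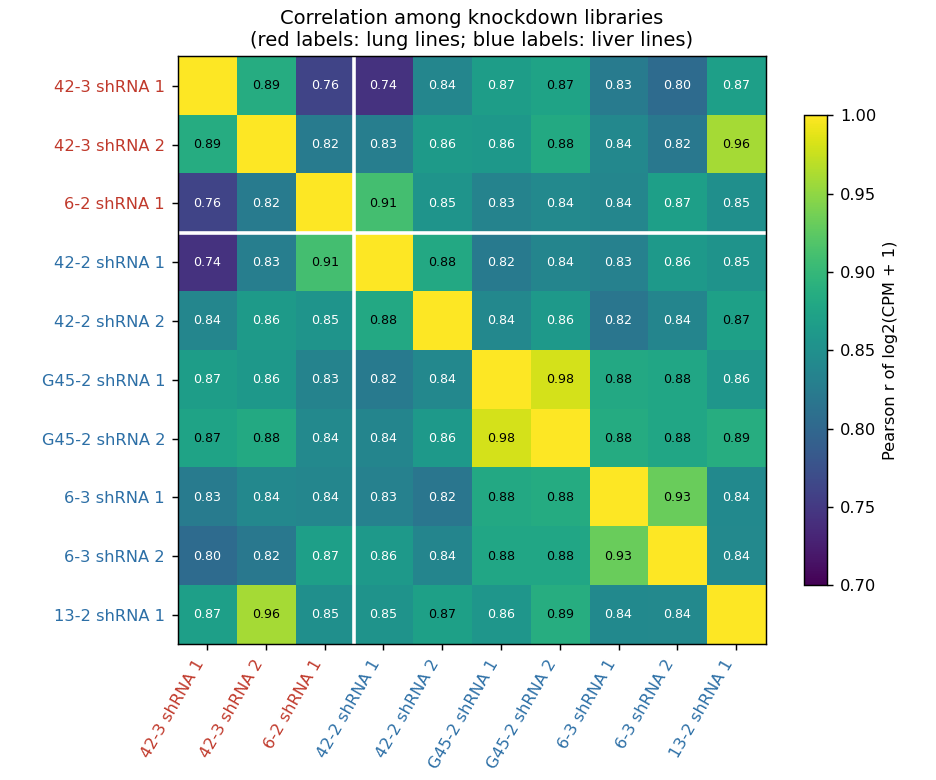
Pearson's r of log2(CPM + 1) between the 10 Gstt1 knockdown libraries, lung lines first on both axes and white lines between the sites. The highest values between the sites are 0.96 (42-3 shRNA 2 with 13-2 shRNA 1) and 0.91 (6-2 shRNA 1 with 42-2 shRNA 1).

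Several transcripts that usually tell one line from another did not follow the line labels. The Y-linked RNA helicase gene Ddx3y was at 0, 0.119 and 1.08 CPM in the lung knockdown libraries (42-3 shRNA 1, 42-3 shRNA 2, 6-2 shRNA 1), against 222, 98.3 and 216 CPM in the lung NT controls. Among liver knockdown libraries it was at 63.9 to 127 CPM in both G45-2 and both 6-3 libraries and at most 0.0706 CPM in the 42-2 and 13-2 libraries. Xist, the RNA that silences an X chromosome, was at 197 CPM in 42-3 shRNA 1 and 74.3 CPM in 42-2 shRNA 2, and at most 0.16 CPM in the other 8 knockdown libraries. The sister libraries 42-3 shRNA 2 and 42-2 shRNA 1 held 0.119 and 0.149 CPM. The 2 controls of line 42-2 also differed in Xist, at 0.0494 and 41.7 CPM. Kdm5d, a Y-linked histone demethylase gene, was at 0 and 0.0621 CPM in the G45-2 knockdown libraries, against 29.8 CPM in their control, and at 40.6 and 25.5 CPM in the 6-3 knockdown libraries, against 25.8 CPM in theirs.

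Cdkn2b, a cyclin-dependent kinase inhibitor gene beside Cdkn2a that pancreatic tumours often lose, was at 0 CPM in 42-3 shRNA 2 and 6-2 shRNA 1 and 31.5 CPM in 42-3 shRNA 1. In liver libraries it was at 0.0706 CPM in 13-2 shRNA 1 and 8.43 to 126 CPM in the other 6. All 8 NT controls held 81.8 to 238 CPM. Thus both lung lines held Y-linked transcripts as controls and next to none as knockdowns, and the 2 hairpin libraries of 42-3 and of 42-2 differ in Xist. Results were therefore also computed without lines 42-3 and 42-2, without lines G45-2 and 6-3, and without each line, and only part of these values is given. The interaction with knockdown cannot be recomputed without the lines that differ, because both lung lines do. Library 6-2 shRNA 1 had r = 0.76 with its own control, and its nearest control was one of line 42-2, at 0.86. It was not alone in this. The nearest control was of another line for 42-3 shRNA 1 (0.85, own 0.80 to 0.83) and 42-3 shRNA 2 (0.89, own 0.84 to 0.85). The same held for 13-2 shRNA 1 (0.89, own 0.87). For both G45-2 libraries and 6-3 shRNA 2 a 42-3 control was nearest, at 0.90 to 0.91, with 0.90 to 0.91 for their own. Whether any library carries the label of another line, or holds a mixture of lines, was not tested. Every lung and liver value here, and every relation with the controls, rests on the labels.

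Gstt1 itself was low in all 3 lung libraries labelled as knockdowns and varied among the liver ones. Its level was 0.352 CPM in 42-3 shRNA 1, 0.238 CPM in 42-3 shRNA 2 and 0.358 CPM in 6-2 shRNA 1. Liver libraries ranged from 0.0687 CPM in 42-2 shRNA 2 to 23.9 CPM in G45-2 shRNA 1, with a median of 0.373 CPM. The 3 highest were G45-2 shRNA 1, 6-3 shRNA 1 at 19.2 CPM and G45-2 shRNA 2 at 5.15 CPM, and the lung range lay inside the liver range. The NT controls held 37.6 and 38.8 CPM in 42-3 and 52.5 CPM in 6-2 among lung lines, against 43.8 CPM in G45-2, 25.4 CPM in 6-3, 24.3 CPM in 13-2 and 2.67 and 0.616 CPM in 42-2 among liver lines. The libraries labelled 6-3 shRNA 1 and G45-2 shRNA 1 were thus nearer to the level of their own control than to 0, and line 42-2 had little before knockdown. As line means of log2(CPM + 1), Gstt1 was 0.41 ± 0.05 in lung (SD, n = 2 lines) and 1.65 ± 1.63 in liver (SD, n = 4 lines). The difference, lung minus liver, was -1.24 (exact two-sided permutation p = 0.8, where 2 lines against 4 cannot go below 0.133). Without lines G45-2 and 6-3 it was 0.09 (exact permutation p = 0.333). That is the smallest p that 2 lines against 2 can give, so this test could not decide. In bulk RNA, fewer cells with the transcript and less of it per cell cannot be told apart.

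No gene passed the comparison of lung with liver lines in the knockdown state. Of 12423 genes tested with limma on 6 line means, 0 (0%) reached an adjusted p under 0.05, the smallest adjusted p being 0.9999. At an unadjusted p under 0.05 there were 280 genes (2.25%), 148 with a higher and 132 with a lower lung mean. edgeR's quasi-likelihood test on the recovered reads also called 0 genes. The median 95% confidence interval reached 1.07 log2 units to either side of the estimate, without adjustment for the number of genes. Larger differences also failed the adjusted threshold, such as that of Bok at -2.06. The median absolute difference between the sites was 0.30, while the 2 lung lines differed from each other by a median of 0.70. The first is a difference of means over lines and the second one of single lines, which spreads more, so the 2 values are not like for like. A difference of at least 1 log2 unit in either direction was found for 874 genes (7.04%). The count stayed 0 with lines 42-3 and 42-2 left out, with G45-2 and 6-3 left out, and with the library code as a term. The fit with the library code took libraries, not line means, as units. In it only codes CFa8 and CFa11 hold knockdown libraries of both sites.

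The same 6 lines compared as NT controls gave 4 of 12495 genes (0.032%) past the threshold, all higher in lung, and 1683 genes (13.5%) at an unadjusted p under 0.05. The median difference between the 2 lung lines was 0.36 there. Among the genes called were Tnfrsf26, a gene of the TNF receptor family, Slc1a2, a glutamate transporter gene, and Sall1, a zinc finger transcription factor gene. Leaving out line 42-3, 6-2, 42-2 or 13-2 left 0 calls, leaving out G45-2 gave 14 and leaving out 6-3 gave 188.

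Tnfrsf26 was at 1.33 and 1.07 CPM in the 42-3 libraries and 2.05 CPM in 6-2 after knockdown, against 0 to 50 CPM (median 1.7) in liver knockdown libraries. As controls the lung libraries held 43.9, 132 and 40.4 CPM, and the liver libraries 0.362 to 0.922 CPM (median 0.741). The groups thus lay apart as controls and overlapped after knockdown. Slc1a2 was at 0.0783 to 0.205 CPM in lung knockdown libraries, a few reads, and 0.416 to 0.931 CPM in liver ones, with lung now below liver. Its controls held 47.9 to 272 CPM in lung and 0.362 to 2.59 CPM in liver. Sall1 had 0 reads in the 3 lung knockdown libraries, against up to 22 CPM in G45-2, and Slc1a2 and Sall1 were too low after knockdown to be tested.

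Whether the site difference itself changed with knockdown was asked with the interaction of site and knockdown. Of 12423 genes, 0 (0%) passed, with a smallest adjusted p of 0.0692, and 1611 (13%) had an unadjusted p under 0.05. edgeR also called 0. The 5 smallest p with a positive interaction belonged to Twist1, an epithelial to mesenchymal transition factor, Plcb4, a phospholipase C gene, Tgfbr3, a TGF-beta co-receptor gene, Fam73a (now Miga1), a mitochondrial outer membrane protein gene, and Rragd, a GTPase gene of the mTORC1 pathway. Twist1 was at 38.6 to 41.8 CPM in lung knockdown libraries against 0.0832 to 62.5 CPM (median 35.6) in liver ones, and at 0.0674 to 4.12 CPM in lung controls against 2.79 to 114 CPM (median 61.5) in liver controls. Its interaction was 4.55 log2 units (limma adjusted p = 0.0692). Tgfbr3 was at 24.6 to 188 CPM in lung knockdown libraries and at most 0.134 CPM in lung controls, an interaction of 5.96 (limma adjusted p = 0.0862).

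The 5 with a negative interaction were the Y-linked Eif2s3y, Uty and Ddx3y together with Lgals2, a galectin gene, and Acan, the aggrecan gene. Lgals2 was at 0.666 to 9.55 CPM in lung knockdown libraries against 1.05 to 275 CPM in liver ones, and at 551 to 1226 CPM in lung controls against 0.462 to 606 CPM in liver controls. Ddx3y had an interaction of -6.50 (limma adjusted p = 0.0862). The change of Y-linked transcripts in the lung lines lies beside all of these interactions, and its part in them was not tested.

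Across the 11972 genes tested in both states, the site difference after knockdown and the site difference in controls were inversely related, with r = -0.37 across genes, which are not independent replicates, and the relation rests on the line labels. No library is in both comparisons, although the lines are. Only 4325 genes (36.1%) had the same sign in both states. Among 427 genes that differed by at least 2 log2 units between lung and liver controls, 99 (23.2%) kept the sign after knockdown. The standard deviation of the differences over genes was 0.55 after knockdown and 0.83 in controls.

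**Figure D2:**
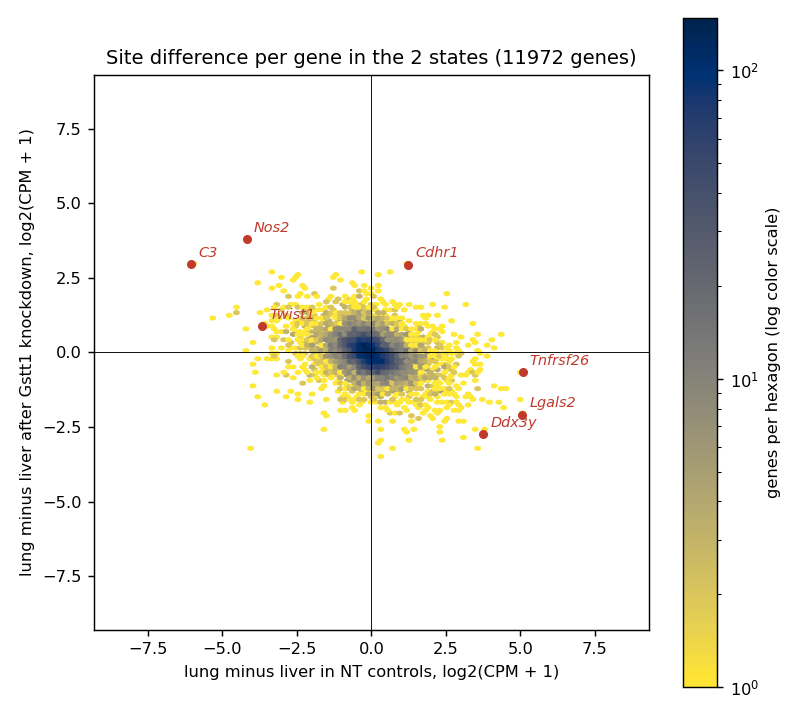
Lung minus liver difference per gene in log2(CPM + 1), after Gstt1 knockdown (vertical axis) against NT controls (horizontal axis), with hexagons shaded by the number of genes and 7 genes marked in red. The cloud leans from upper left to lower right (r = -0.37 over 11972 genes), with Nos2 and C3 at the upper left and Ddx3y and Lgals2 at the lower right.

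As a description of the libraries, 107 genes (0.861%) had all 3 lung knockdown libraries above all 7 liver knockdown libraries, and another 107 (0.861%) had all 3 below. Some genes would lie apart in this way under any ordering of the libraries. That number was not computed, so these counts, and the genes named from them, are not evidence of a site difference. In the controls 651 genes (5.21%) lay apart with lung above and 888 (7.11%) with lung below. The controls set 3 libraries against 5, and fewer libraries lie apart more easily, so these shares and those after knockdown are not like for like. Of the 107 genes above after knockdown, 0 were also above in the controls and 11 lay apart there in the opposite direction. Of the 107 below, 1 was also below in the controls (0.935% of the knockdown genes, 0.113% of the control genes) and 14 lay apart in the opposite direction. The gaps were small, with a median of 0.09 log2 units for the genes above and 0.07 for those below. The counts moved with the libraries used: without line 42-3 they were 2098 above and 1775 below, and without 6-2 they were 573 and 919.

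**Figure D3:**
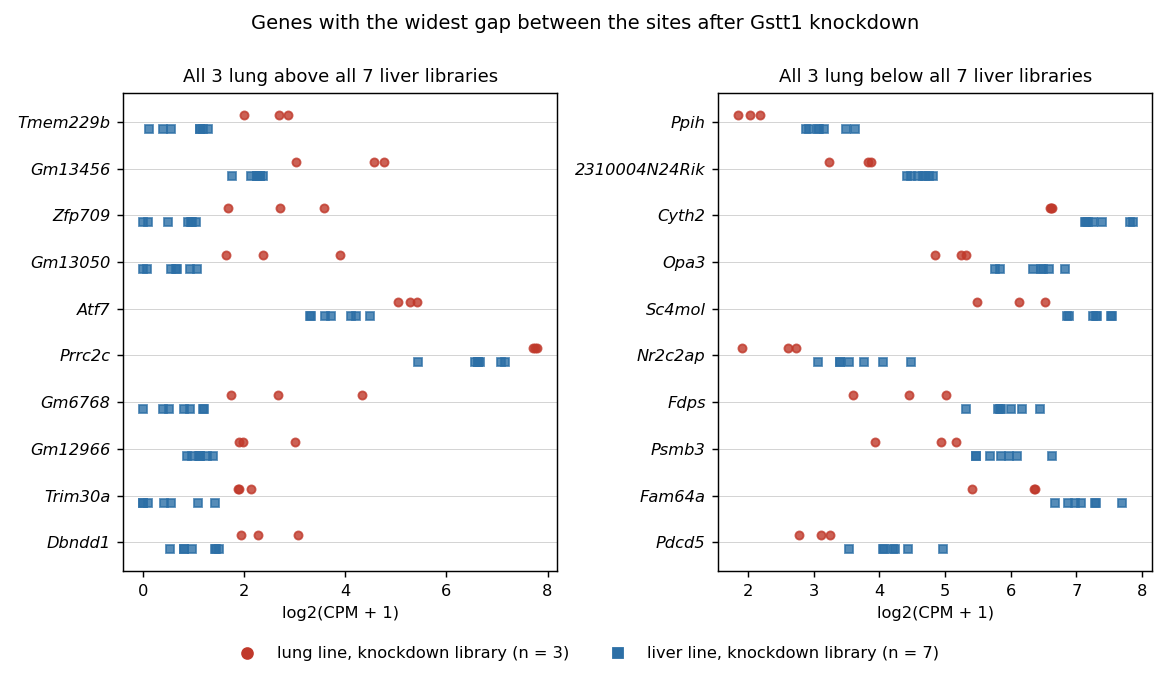
Level in each of the 10 knockdown libraries, as log2(CPM + 1), of the 10 genes with the widest gap in each direction, with lung libraries as red circles (n = 3) and liver libraries as blue squares (n = 7). In every gene shown the groups lie apart, by at most 0.72 log2 units (Tmem229b) on the left and 0.69 (Ppih) on the right.

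Among genes that lay above in lung, the widest gap was that of Tmem229b, a transmembrane protein gene. It was at 3.01 CPM in 42-3 shRNA 1, 6.3 CPM in 42-3 shRNA 2 and 5.43 CPM in 6-2 shRNA 1, against 0.0832 to 1.44 CPM (median 1.19) in the liver libraries. The difference was 1.69 log2 units (SE 0.46, limma adjusted p = 0.9999), with a gap of 0.72 between the groups. Prrc2c, a large RNA granule protein gene, was nearly constant in lung at 208, 222 and 215 CPM, against 42.1 to 142 CPM (median 98.3) in liver. Its difference was 1.15 (SE 0.33, limma adjusted p = 0.9999). As controls the lung libraries held 80.6, 97.9 and 75.5 CPM of Prrc2c and the liver libraries 59.9 to 152 CPM, so that the groups overlapped.

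The row named Atf7 had 41.8, 38 and 32 CPM in lung and 8.82 to 21.6 CPM (median 12.2) in liver. Its identifier is called Gm28047 in a later annotation, so the gene behind it is uncertain. Trim30a, an interferon-responsive ubiquitin ligase gene, was at 2.7, 2.73 and 3.38 CPM in lung and 0 to 1.7 CPM (median 0.344) in liver. Zfp709, a zinc finger gene, and Dbndd1 completed the protein-coding genes of the 10, with 2.2 to 11 CPM and 2.85 to 7.37 CPM in lung, against at most 1.06 and 1.83 CPM in liver. The other 4, Gm13456, Gm13050, Gm6768 and Gm12966, are annotated as processed pseudogenes, whose reads can come from their parent genes. Gm13456 was at 26.3, 7.13 and 22.6 CPM in lung and 2.39 to 4.22 CPM (median 3.78) in liver.

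Among genes that lay below in lung, Ppih, a peptidyl-prolyl isomerase of the spliceosome, had the widest gap, at 3.09, 3.57 and 2.61 CPM in lung and 6.36 to 11.4 CPM (median 7.49) in liver, a difference of -1.16 (SE 0.43, limma adjusted p = 0.9999). Cyth2, an exchange factor for ARF GTPases, was nearly constant in lung at 95.7, 98.2 and 97 CPM, against 139 to 231 CPM (median 152) in liver, a difference of -0.83 (SE 0.27). Its controls overlapped, at 102, 142 and 146 CPM in lung against 91 to 123 CPM (median 103) in liver. Opa3, a mitochondrial protein gene, was at 27.8, 39.1 and 37 CPM in lung and 53.5 to 112 CPM (median 87.4) in liver. Psmb3, a proteasome subunit gene, was at 14.3, 34.8 and 29.6 CPM in lung and 43.3 to 97.7 CPM (median 56.6) in liver.

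The cholesterol synthesis genes of this group were also among the 10 of smallest unadjusted p with a lower lung mean. Fdps, the farnesyl diphosphate synthase gene, was at 31.2, 11.1 and 20.8 CPM in lung and 39.1 to 86.4 CPM (median 57) in liver, a difference of -1.54 (SE 0.31, limma adjusted p = 0.9999). Sc4mol (now Msmo1), a sterol demethylation enzyme gene, was at 90.6, 43.7 and 69 CPM in lung and 115 to 186 CPM (median 156) in liver, a difference of -1.18 (SE 0.24, limma adjusted p = 0.9999). In the controls Fdps was at 89.8, 129 and 107 CPM in lung and 19.1 to 165 CPM (median 26.7) in liver, so that the lung values lay above the liver median there. Fam64a (now Pimreg), a mitotic gene, was at 41.4, 81.8 and 81.2 CPM in lung and 101 to 207 CPM in liver after knockdown, and at 163, 159 and 140 CPM in lung and 21.9 to 97.5 CPM in liver as controls. Its groups lay apart in both states, in opposite order, with an interaction of -2.69 (limma adjusted p = 0.0925). The remaining 3 genes, 2310004N24Rik (now Ten1), Nr2c2ap and Pdcd5, had 8.45 to 13.7, 2.78 to 5.63 and 5.87 to 8.56 CPM in lung, against 20.4 to 27.3, 7.35 to 21.3 and 10.6 to 30.3 CPM in liver.

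The smallest p-values did not always mark groups that lie apart, because line means average the 2 hairpin libraries. Bok, a BCL-2 family cell death gene, had the smallest unadjusted p of the genes with a lower lung mean, at 21 CPM in 42-3 shRNA 1, 23.8 CPM in 6-2 shRNA 1 and 157 CPM in 42-3 shRNA 2, against 108 to 231 CPM (median 164) in liver. The difference was -2.06 (SE 0.39, limma adjusted p = 0.9999), and the 42-3 shRNA 2 library lay inside the liver range. S100a11, a calcium-binding protein gene, showed the same split, with 90.7 and 102 CPM in 42-3 shRNA 1 and 6-2 shRNA 1, 431 CPM in 42-3 shRNA 2 and 373 to 544 CPM in liver. Tmed2, Ifi202b, Glo1, Tmsb10, Swi5 and the row named Mir5102 also had 42-3 shRNA 2 inside the liver range. The nearest library of 42-3 shRNA 2 is a liver library (13-2 shRNA 1).

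Of the genes with a higher lung mean, Cdhr1, a cadherin-related gene of photoreceptors, had the smallest p, with 7.16, 33.3 and 19.6 CPM in lung and 0 to 5.57 CPM (median 1.2) in liver, a difference of 2.94 (SE 0.62, limma adjusted p = 0.9999). Irs2, an adaptor of the insulin receptor, was at 73.1, 253 and 204 CPM in lung and 46.7 to 153 CPM (median 53.5) in liver, and 42-2 shRNA 2 lay above the lowest lung library. Its controls were at 25.8, 22.6 and 18.8 CPM in lung, below the 37.8 to 186 CPM in liver. Lrba, a vesicle trafficking gene, was at 26.1, 9.75 and 44.8 CPM in lung and 3.81 to 7.55 CPM in liver. Robo1, a Slit receptor gene, rested on 102 CPM in 42-3 shRNA 1, with 1.31 and 4.86 CPM in the other lung libraries and up to 8.66 CPM in liver.

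Gene lists were described by counts, since 0 of their members passed, and set beside all 12423 genes, of which 6148 had a higher lung mean with a median difference of -0.01. Oxidative phosphorylation genes lay mostly below in lung: 47 of 52 had a lower lung mean, with a median of -0.35. The subunit genes Atp5o and Ndufa2 gave -1.39 (SE 0.34) and -1.15 (SE 0.29). Ndufa2 was at 51.3, 91.5 and 48.2 CPM in lung and 99.6 to 175 CPM (median 138) in liver, the single member whose groups lay apart. Cytosolic ribosomal protein genes had a lower lung mean in 31 of 35, with a median of -0.46, and Rplp2 gave -1.08 (SE 0.30). The ribosomal median was -1.54 within library code CFa8, 0.54 within code CFa11 and -0.02 with shRNA 2 alone. Members of both lists are short, with a median transcript of 1232 and 1151 bases against 3401 over all genes, and with the trend over length removed the medians were -0.08 and -0.19.

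Cholesterol and fatty acid synthesis genes had a lower lung mean in 25 of 31, with a median of -0.51, and -0.61 with the length trend removed. In the controls the median was 0.86, and within library code CFa8 it was 0.11 after knockdown. Mitotic genes had a lower lung mean in 26 of 30, with a median of -0.23, against 1.15 in the controls. That median turned to 0.22 without line 42-3 and was -0.79 without line 6-2, since the 2 lung lines lay on either side of the liver lines (line medians of -0.71 in 42-3 and 0.37 in 6-2, against -0.33 to 0.28 in liver). DNA replication genes gave 25 of 40 lower, a median of -0.12, with 0.51 without 42-3 and 0.69 without lines 42-3 and 42-2.

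Other lists had more members with a higher lung mean. p53 target genes had a higher lung mean in 18 of 22, with a median of 0.54, but the highest line was the liver line 13-2 (line median 1.08, against 0.67 in 42-3 and -0.10 in 6-2). The median difference was 0.07 without 42-3, 0.02 without lines 42-3 and 42-2 and 0.06 without lines G45-2 and 6-3. AP-1 and immediate early genes had a higher lung mean in 16 of 22, with a median of 0.62, again with 13-2 highest (1.05, against 0.14 in 42-3 and 0.44 in 6-2). That median rested on 1 library: it was -0.17 without 42-3 shRNA 2 and 1.15 without 42-3 shRNA 1. It was -0.06 with shRNA 1 alone and 0.04 without lines G45-2 and 6-3. Fos was at 6.81 CPM in 42-3 shRNA 1, 194 CPM in 42-3 shRNA 2 and 231 CPM in 6-2 shRNA 1, against 9.25 to 64.9 CPM (median 24.6) in liver, so that 1 lung library lay below all the liver ones. Semaphorin, ephrin and axon guidance genes had a higher lung mean in 27 of 36 (median 0.35, or 0.19 with the length trend removed), TGF-beta and BMP signalling genes in 21 of 30 (median 0.19) and WNT signalling genes in 19 of 30 (median 0.40). The TGF-beta median was 0.42 without 42-3 shRNA 1, 0.08 without 42-3 shRNA 2 and 0.04 without lines G45-2 and 6-3. The WNT median was 0.19 without line 42-3, 0.16 without 6-3 and -0.03 without lines G45-2 and 6-3. Lrp5, a WNT co-receptor gene whose groups lay apart, was at 109, 57.9 and 51.9 CPM in lung and 21.3 to 48.6 CPM (median 38.7) in liver.

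Acute-phase and innate defence genes had a higher lung mean in 7 of 9, with a median of 0.77, where the controls gave -2.23. The median was 0.22 without line 42-2, 1.42 without G45-2, 1.30 without library 42-3 shRNA 2 and 2.34 with the number shared by line names as a term. Nos2, the inducible nitric oxide synthase gene, was at 15.4, 23.9 and 157 CPM in lung and 0 to 15.9 CPM (median 2.17) in liver, where 42-2 shRNA 1 lay just above the lowest lung library. Its difference was 3.79 (SE 1.16, limma adjusted p = 0.9999), and in controls -4.18 (limma adjusted p = 0.0514). The complement gene C3 was at 25.6, 183 and 219 CPM in lung and 0 to 59.2 CPM (median 11.9) in liver, a difference of 2.96 (SE 1.26), with -6.03 in controls (limma adjusted p = 0.1395).

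**Figure D4:**
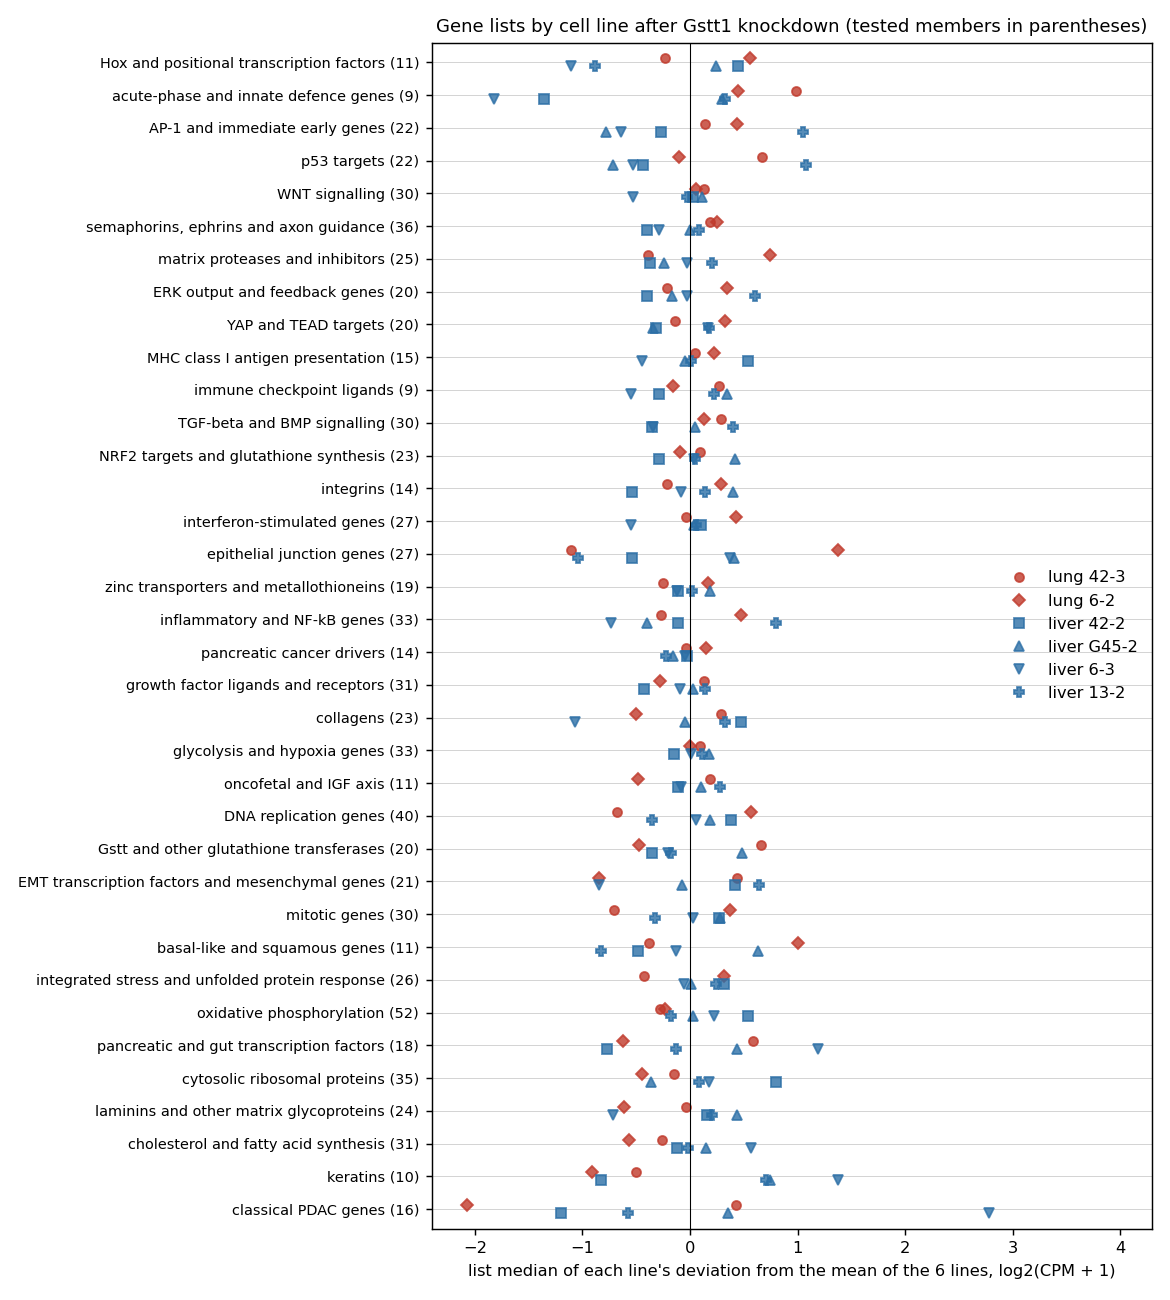
Median over each list's tested genes (number in parentheses) of a line's deviation from the mean of the 6 knockdown line means, in log2(CPM + 1), with lung lines in red and liver lines in blue. The 2 lung lines lie on opposite sides of 0 in many lists, as for mitotic genes (-0.71 in 42-3 and 0.37 in 6-2) and epithelial junction genes (-1.11 and 1.38).

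In 2 lists of cell state the lung lines lay far apart. Epithelial junction genes had line medians of -1.11 in 42-3 and 1.38 in 6-2, against -1.04 to 0.41 in liver. Genes of the classical pancreatic cancer subtype had line medians of 0.43 in 42-3 and -2.07 in 6-2, against -1.20 in 42-2 to 2.78 in 6-3. For keratins they were closer, at -0.50 in 42-3 and -0.91 in 6-2, against -0.83 in 42-2 to 1.38 in 6-3, with 7 of 10 lower in lung and a median of -0.61. The keratin median was 0.05 without lines G45-2 and 6-3 and -2.12 without lines 42-3 and 42-2. The classical list gave 13 of 16 genes with a lower lung mean and a median of -0.83, which was 0.39 without 6-2 and -2.57 without 42-3. That median was 0.52 without lines G45-2 and 6-3 and -3.01 without lines 42-3 and 42-2. Klf5, an epithelial transcription factor gene of this list, was one of the 3 with a higher lung mean and the one whose groups lay apart, at 242, 216 and 236 CPM in lung and 72.3 to 211 CPM (median 125) in liver, a difference of 0.86 (SE 0.34, limma adjusted p = 0.9999).

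Glutathione transferase genes, the family of the knockdown target, were divided in direction. Of 20 glutathione transferase genes tested, 9 had a higher and 11 a lower lung mean, with a median of -0.18 that was 0.50 without 6-2 and -0.60 without 42-3. Gstm2, a mu-class enzyme gene, was at 21.7, 48.7 and 9.47 CPM in lung and 0 to 24.4 CPM (median 4.15) in liver with 13-2 shRNA 1 inside the lung range, a difference of 1.52 (SE 0.94). NRF2 targets and glutathione synthesis genes had a higher lung mean in 15 of 23, with a median of 0.17 that was -0.08 without library 42-3 shRNA 2, -0.09 without line 42-3 and -0.22 with shRNA 1 alone. Of 19 zinc transporter and metallothionein genes, 11 had a higher and 8 a lower lung mean, with a median of 0.10. The metallothionein genes Mt1 and Mt2, which bind zinc, gave -1.42 (SE 0.41) and -1.67 (SE 0.47). Mt1 was at 95.1, 25.2 and 27.3 CPM in lung and 44.1 to 179 CPM (median 100) in liver, so that 42-3 shRNA 1 lay inside the liver range.

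The site difference went with transcript length and with chromosome. Genes were split into 5 equal groups by transcript length. In the group with the shortest transcripts the median difference was -0.27 after knockdown, and in that with the longest it was 0.23. In the controls the order was the other way round, 0.20 for the shortest and -0.15 for the longest. Among lung controls this order was marked only in 6-2, with median deviations of 0.28 and -0.22. The 42-3 controls gave -0.01 and 0.08 (CFa8) and 0.01 and -0.05 (CFa11). Liver controls ranged from -0.16 to 0.02 for the shortest and from -0.13 to 0.17 for the longest. Of the 107 genes above in lung 44 were in the longest group and 10 in the shortest, and of the 107 below 3 and 42. Among libraries, the shortest group deviated most in 42-3 shRNA 1 (-0.37) and 6-2 shRNA 1 (-0.27) among lung libraries and in 42-2 shRNA 1 (0.41) among liver ones. All 3 have the library code CFa8. Within that code, of 2 lung libraries and 1 liver library, the median of oxidative phosphorylation genes was -1.07, and within code CFa11, of 1 lung library and 2 liver libraries of 1 line, it was -0.04. The lung library of code CFa11, 42-3 shRNA 2, lacked the order by length, at -0.04 for the shortest group and -0.13 for the longest. The longest group was at 0.24 in 42-3 shRNA 1 and 0.34 in 6-2 shRNA 1.

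X-linked genes lay above in lung as a group. Of 385 tested, 271 had a higher lung mean (70.4%), with a median of 0.31. Of the 107 genes above in lung 14 (13.1%) were X-linked, and of the 107 below 0, against 3.1% of all genes tested. Huwe1, an X-linked ubiquitin ligase gene, was at 226, 158 and 239 CPM in lung and 67.7 to 165 CPM (median 85.3) in liver, a difference of 1.09 (SE 0.26, limma adjusted p = 0.9999), with 42-2 shRNA 2 above the lowest lung library. Smc1a, an X-linked cohesin gene, was at 478, 206 and 340 CPM in lung and 97.9 to 257 CPM (median 163) in liver, with the same library inside the lung range. By library the median deviation of X-linked genes was 0.48 and 0.29 in the 42-3 libraries and -0.02 in 6-2, against 0.37 in 42-2 shRNA 2, -0.10 in 42-2 shRNA 1, 0.07 in 13-2 and -0.38 to -0.31 in the G45-2 and 6-3 libraries. The 4 lowest are the libraries with Ddx3y, although the G45-2 pair lacked Kdm5d, and without G45-2 and 6-3 the median difference of X-linked genes was 0.10. In the controls the median was -0.32 over 398 genes. Of the autosomes, chosen after their values were seen, chromosomes 10 and 14 had the highest medians, at 0.17 over 577 genes and 0.14 over 401 genes. They held 10 and 13 of the 107 genes above in lung, and 0 and 1 of the 107 below. Chromosome 7, with 909 genes and a median of -0.03, held 12 of the genes above and 17 of those below.

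**Figure D5:**
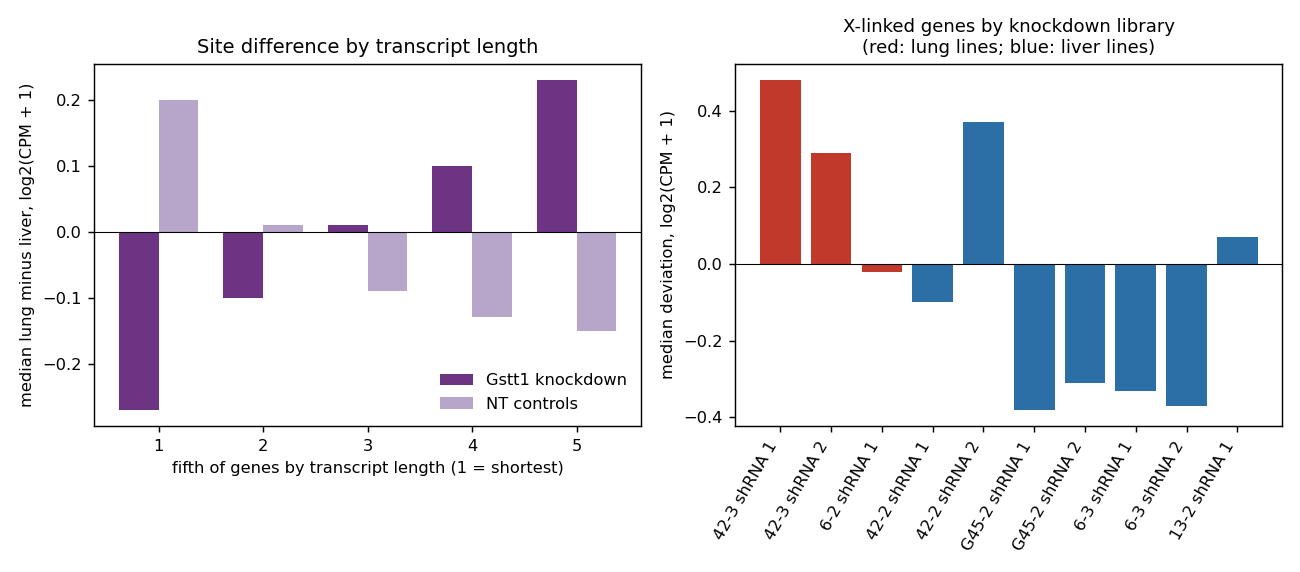
Left, median lung minus liver difference in log2(CPM + 1) for 5 equal groups of genes by transcript length, after knockdown and in NT controls. Right, median deviation of X-linked genes in each knockdown library from the mean of the 10 libraries, lung in red and liver in blue. The differences by length have opposite order in the 2 states, and among lung controls the order was marked only in 6-2. Among lung knockdown libraries 42-3 shRNA 2 lacked the order. The 4 lowest X-linked medians (-0.38 to -0.31) are the G45-2 and 6-3 libraries.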

How the data were processed

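The authors deposited 1 table of CPM values (reads scaled to a common library total) for 16383 genes, with 32 symbols occurring more than once. The submitters' processing notes name mm9. Which aligner, counter and gene models were used, whether low genes were removed and whether strand was used are not given in sources used here. Whole reads could be recovered for 100% of values within 0.01 reads, and the listed genes made up 99.0% to 99.6% of each library total. Libraries were prepared from 1.3 µg of total RNA, per the labels. Groups, lines and hairpins follow the labels. Chi-square over degrees of freedom was at least 33 for any pair of libraries, so none was a duplicate.

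Genes reaching 1 CPM in 3 or more of the libraries fitted were taken as log2(CPM + 1), averaged per line, and tested by limma 3.58.1 in R 4.3.3 with a mean-variance trend and two-sided p-values adjusted by Benjamini-Hochberg, 2 lung against 4 liver lines. The pseudocount of 1 understates the differences of low genes. The interaction was tested on knockdown minus control means per line. edgeR 4.0.16 on the recovered reads, removal of a lowess trend with transcript length, and leaving out the libraries and lines whose nearest libraries or identity transcripts went against their labels were added after the data were seen. Alternatives tried were pseudocounts, filters, rescaling, quantile normalization, robust variances, libraries as units, each hairpin alone, the library code or line number as a term, and leaving out each line or library. The library code was fitted to libraries, not line means. Transcript lengths, chromosomes and gene types came from a GENCODE annotation of another build by identifier (97.7% of genes matched for length), so no coordinates are given. The fit was run on simulated data with changes larger than any found between the sites after knockdown. Its outcome is not given, and no result here rests on it.

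The members and lists were chosen with earlier results of these data known. Named are Gstt1, the 10 genes of smallest p and of widest gap in each direction, the 2 of smallest p of each list, and 5 genes in each direction for the interaction. The genes called in the controls, the identity transcripts and the list members whose groups lay apart were named after their values were seen; genes without overlap between the groups and the X-linked and chromosome counts were described as counts. Python 3.11.15 with pandas 2.3.3, numpy 2.4.6 and matplotlib 3.10.9 was used. A genotype element and a gene are not reported here.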

Additional observations from a re-analysis of the deposited data

Results flagged for a closer look

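In 3 of 108 named genes, 1 liver line lay far from the other 3 liver lines after Gstt1 knockdown, by the gap between the farthest line mean and its neighbour relative to the whole range. Fam64a, a mitotic gene, was at 7.50 log2(CPM + 1) in G45-2, with the other liver lines at 6.97 to 6.98. Nfkbib, an inhibitor of NF-kB, was at 5.28 in G45-2, with the others at 5.50 to 5.54. Hoxa7, a positional transcription factor gene, was at 2.50 in 42-2, with the others at 0.20 to 0.28. At a 0.05 level such a gap is found by chance in about that share of genes, which is more than the number seen here.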

How the results depend on the processing

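The count of 0 genes after knockdown was the same in all 34 tested alternatives, with 156 to 1015 genes at an unadjusted p under 0.05. The 4 calls in the controls became 2 with a pseudocount of 0.5, quantile normalization or the length trend removed, 19 without a filter, with a filter of 5 CPM or with robust variances, 1 with edgeR, and 0 to 188 with a line left out. Of the 44 list medians after knockdown, 6 kept their sign in every setting where they could be computed. They were those of oxidative phosphorylation, acute-phase, p53 target and TGF-beta and BMP genes, identity transcripts and lung epithelium markers. The lung epithelium median is that of 1 tested gene. In some settings the p53, TGF-beta and oxidative phosphorylation medians were only 0.02, 0.04 and -0.04. The interaction gave 3 calls with a filter of 5 CPM and 3 with robust variances. The Gstt1 difference was -1.74 to -0.58 with a line or library left out and 0.09 without lines G45-2 and 6-3.

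Genes with lung above and below all liver libraries numbered 114 to 2098 and 111 to 1775 with a line or library left out. They numbered 789 and 649 for shRNA 1 alone, 2290 and 3551 for shRNA 2 alone, 616 and 654 without 42-3 shRNA 2 and 13-2 shRNA 1, and 650 and 971 without 6-2 shRNA 1 and 42-2 shRNA 1. They were 191 and 191 without G45-2 shRNA 1 and 6-3 shRNA 1, 545 and 578 without lines G45-2 and 6-3, and 2974 and 2434 without lines 42-3 and 42-2. Fewer libraries make it easier for groups to lie apart.

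Of 108 named genes, 24 changed direction in some setting, and the cause was not tested. With shRNA 2 alone, which leaves 1 lung line, the differences were 0.17 for Bok, 0.02 for S100a11, 0.14 for Glo1, 0.13 for Mir5102, 1.41 for Krt18, 0.96 for Krt19, -0.03 for Hmox1, 0.29 for Krt20, 1.84 for S100a4, 3.11 for Fbln1, 0.46 for Itga5, 0.20 for Plaur, 1.99 for Fst, 0.29 for Etv5, 0.50 for Igfbp4 and 0.36 for Pgk1. With the library code as a term they were 1.10 for Krt19, 0.13 for Gsto1, 0.07 for Fst, -0.15 for Ccne2, 0.05 for Igfbp4, -0.03 for Hoxa7 and -0.74 for Hoxa10. Krt19 was 0.23 without 6-2 shRNA 1 and 42-2 shRNA 1 and 0.22 without lines G45-2 and 6-3, where Lgals9 was 0.06. Itga7 was 0.14 and Cenpa 0.04 without lines 42-3 and 42-2, and Sox2 was 0.22 with the number before the hyphen of the line name as a term. With a line or library left out, Krt19 ranged from -1.85 to 0.39, Hmox1 from -0.01 to 2.03, Fbln1 from -3.05 to 0.27, Itga7 from -1.57 to 0.32 and Fst from -2.64 to 0.38.

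No paired analysis was possible because the labels give no replicate numbers and do not say what the first number of a line name marks. That number is shared by 42-3 (lung) and 42-2 (liver) and by 6-2 (lung) and 6-3 (liver), and the other 2 liver lines have no partner. With it as a term 0 genes passed after knockdown, and the median of acute-phase genes was 2.34, against 0.77 without it. With 2 lung lines, 1 of them with a single knockdown library, line and site can hardly be separated, and where a line is left with no partner its spread is assumed to be that of the other lines.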
